A study of Mus musculus with 17 samples.

Results

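The genes described here are Timp1, the smooth muscle and contractile genes Tagln, Acta2 and Des, the fibrillar collagen chains Col1a1, Col1a2 and Col3a1, the basement membrane collagen chains Col4a1 and Col4a2, and Reln. They were chosen by symbol, as a set that covers the matrix, the stellate cell and its main protease inhibitor. Earlier results of these data were known when they were chosen. Each was matched to 1 Ensembl gene ID of the expression table, so 10 of the 46073 genes in the table are members. All 10 passed the filter on low values, a mean of at least 1 FPKM (fragments scaled to transcript length and library size) over the 17 libraries.

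Hepatic stellate cells lie between the hepatocytes and the sinusoidal endothelium, store vitamin A and express Reln, the gene of the secreted glycoprotein reelin. After injury they can turn into contractile, matrix-producing cells that express the smooth muscle actin Acta2 and its partner Tagln, together with fibrillar collagens. Timp1 encodes a secreted inhibitor of matrix metalloproteases, the enzymes that break collagen down, and is induced in several cell types by cytokines of the interleukin-6 family. Type IV collagen, built from the Col4a1 and Col4a2 chains, forms the network of basement membranes, which endothelial cells and stellate cells both produce.

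RNA was sequenced from the livers of 17 male C57BL/6 mice, 11 to 12 weeks old. They were killed 24 h after being given acetaminophen (APAP), a painkiller that injures hepatocytes at high dose, or saline. Each mouse had 1 of 3 genotypes at Nampt, whose product controls the pace of NAD salvage from nicotinamide, and the title of the series asks about a protective role of this enzyme in APAP injury. APAP at 200 mg/kg was given to 3 mice labelled Nampt +/- (Het), 2 labelled Nampt OE (OE; the label is not explained, so that neither the promoter nor the cell type of the extra expression is known here) and 3 labelled Nampt +/+ (WT). The saline controls were 2 Het, 2 OE and 3 WT mice. A single OE mouse had APAP at 300 mg/kg and a single WT mouse had saline labelled IG, a label that is not explained. All mice but this WT mouse had an injection, and its route is not known here. Replicate numbers follow the order of deposition and are only names. Nothing but the sample labels says that the libraries are separate animals, and p-values then measure only the spread between samples, which could be technical.

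The files give FPKM and no read counts, so the depth of sequencing is not known and values carry no counting interval. Summed FPKM ranged from 466883 to 916006 and 10631 to 11496 genes reached 1 FPKM per library. OE APAP 1 and OE saline 2, both not perfused and sequenced in lane L004, stood apart from the other 15 libraries on the second principal component (12.8% of the variance), at -39.03 and -38.47, against -15.19 to 17.9 in the rest. Livers differed in perfusion: all 3 WT APAP livers were not perfused, both Het saline livers were perfused, and the remaining groups of 2 or more livers were mixed. Perfused livers were sequenced in lanes L007 and L008 and the others in lanes L004 to L006, so lane and perfusion cannot be told apart. Lane L005 held APAP livers only (all 3 WT, Het APAP 2 and Het APAP 3), and lanes L006 and L007 held WT saline livers only. In WT livers, lane and APAP therefore cannot be told apart either. Alb, which every hepatocyte expresses, was listed at 0 in all 17 libraries, so a listed 0 in this table can be a failed estimate. Bulk liver RNA also cannot tell fewer cells of a type from less RNA per cell.

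Promoter sequences, from RefSeq on GRCm38.p6, were matched for 8 of the 10 genes by symbol. The 250 bases upstream of the annotated start are printed for Timp1 and Col3a1, which rose after APAP, and for Reln, which fell, to show how unlike these regions are. Capitals mark GGGCGG or its reverse complement CCGCCC, the letters of the GC box that Sp1-type factors recognise.
Timp1, chrX:20869916-20870165, plus strand: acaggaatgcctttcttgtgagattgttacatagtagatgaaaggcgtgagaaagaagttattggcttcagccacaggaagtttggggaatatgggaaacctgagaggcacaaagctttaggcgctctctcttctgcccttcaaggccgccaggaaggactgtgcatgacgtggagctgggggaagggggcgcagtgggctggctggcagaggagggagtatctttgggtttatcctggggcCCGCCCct
Col3a1, chr1:45311288-45311537, plus strand: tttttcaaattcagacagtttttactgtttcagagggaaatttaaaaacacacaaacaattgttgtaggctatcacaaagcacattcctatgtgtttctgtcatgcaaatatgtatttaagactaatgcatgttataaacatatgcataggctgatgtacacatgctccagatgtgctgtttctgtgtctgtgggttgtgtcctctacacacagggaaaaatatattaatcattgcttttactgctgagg
Reln, chr5:22344706-22344955, minus strand: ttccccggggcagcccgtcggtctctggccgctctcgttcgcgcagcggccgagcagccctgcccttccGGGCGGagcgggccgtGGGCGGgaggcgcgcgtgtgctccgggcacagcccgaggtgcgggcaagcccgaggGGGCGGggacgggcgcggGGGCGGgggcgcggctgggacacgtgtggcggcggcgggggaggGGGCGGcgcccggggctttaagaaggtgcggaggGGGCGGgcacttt

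The Reln window held 80.0% G and C and 6 matches to GGGCGG, spread between 181 and 13 bases upstream of the start. In Col3a1, whose window held 35.2% G and C, there was no match. Timp1 lay between them at 54.4% G and C, with 1 match 8 bases upstream. The windows not printed held 53.6% G and C in Acta2, 62.0% in Col1a2, 67.2% in Des, 73.6% in Col4a2 and 74.4% in Col4a1. Col4a1 and Col4a2, which rose after APAP, thus lay nearer in base content to Reln than to Timp1 or Col3a1. Whether base content goes with the direction of change was not tested. Over both strands, the windows of Timp1, Col1a2, Col4a2, Des and Reln held GGGCGG, 5 of 8, where 32.7% of the 32851 windows in the table held it. A second pattern was the CArG-like one, which the serum response factor binds in smooth muscle genes and which was searched on both strands as CC, 6 bases of which at least 5 are A or T, and GG. It matched at 2 places in Acta2, as CCCTATATGG 84 bases and CCTTGTTTGG 34 bases upstream, and once in Col1a2, as CCAAACTTGG 228 bases upstream, so 2 of 8 windows held it, against 8.59% of all windows. None of the 8 windows held TGANTCA, the letters of the AP-1 site, which 6.75% of all windows held. Upstream here means before the RefSeq start: GENCODE exons cover 217 of the 250 bases of the Acta2 window, 127 of those of Col1a2 and all of those of Col4a1 and Col4a2. These matches describe letters only.

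Gene positions are from GENCODE M21 on GRCm38. Timp1 (chrX:20870166-20874735, plus strand) lies wholly inside Syn1 on the opposite strand, and Syn1 itself reached no more than 0.229 FPKM in any library. Col4a1 (chr8:11198423-11312826, minus strand) and Col4a2 (chr8:11312805-11449287, plus strand) run away from each other from one shared start region, their first exons overlapping by 22 bases, and their windows are not printed. Tagln (chr9:45929619-45936058, minus strand) shares 108 bases with Pcsk7 on the opposite strand, which reached up to 7.75 FPKM. The miRNA gene Gm47302 lies inside Col3a1 on the same strand, over 141 bases, and was listed at up to 10.6 FPKM. The library kit keeps strand, per the labels, but whether the counting used it is not given in the sources used here.

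After 200 mg/kg APAP, Timp1, Tagln, Acta2, Col1a1, Col3a1, Col4a1 and Col4a2 were higher and Reln was lower than after saline, averaged over the 3 genotypes. The rises were between 1.01 and 2.09 on the log2 scale and Reln fell by 0.75. Col1a2 and Des did not pass the test. Thus 7 of 10 members were called higher and 1 lower, by limma at a Benjamini-Hochberg adjusted p under 0.05 over all 11084 genes tested, where 9.81% of all genes were called higher and 13.3% lower. The median log2 fold change of the 10 members was 1.22, beside -0.02 over all genes tested. As the members were chosen with earlier results of these data known, these values describe the set and do not test it. Timp1 and Col1a1 averaged 0.133 and 0.960 FPKM in the 7 saline livers, under the filter of 1 FPKM. They passed it through the livers where they were higher. Fold changes are differences of log2(FPKM + 1), which understate the change of low genes.

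**Figure D1:**
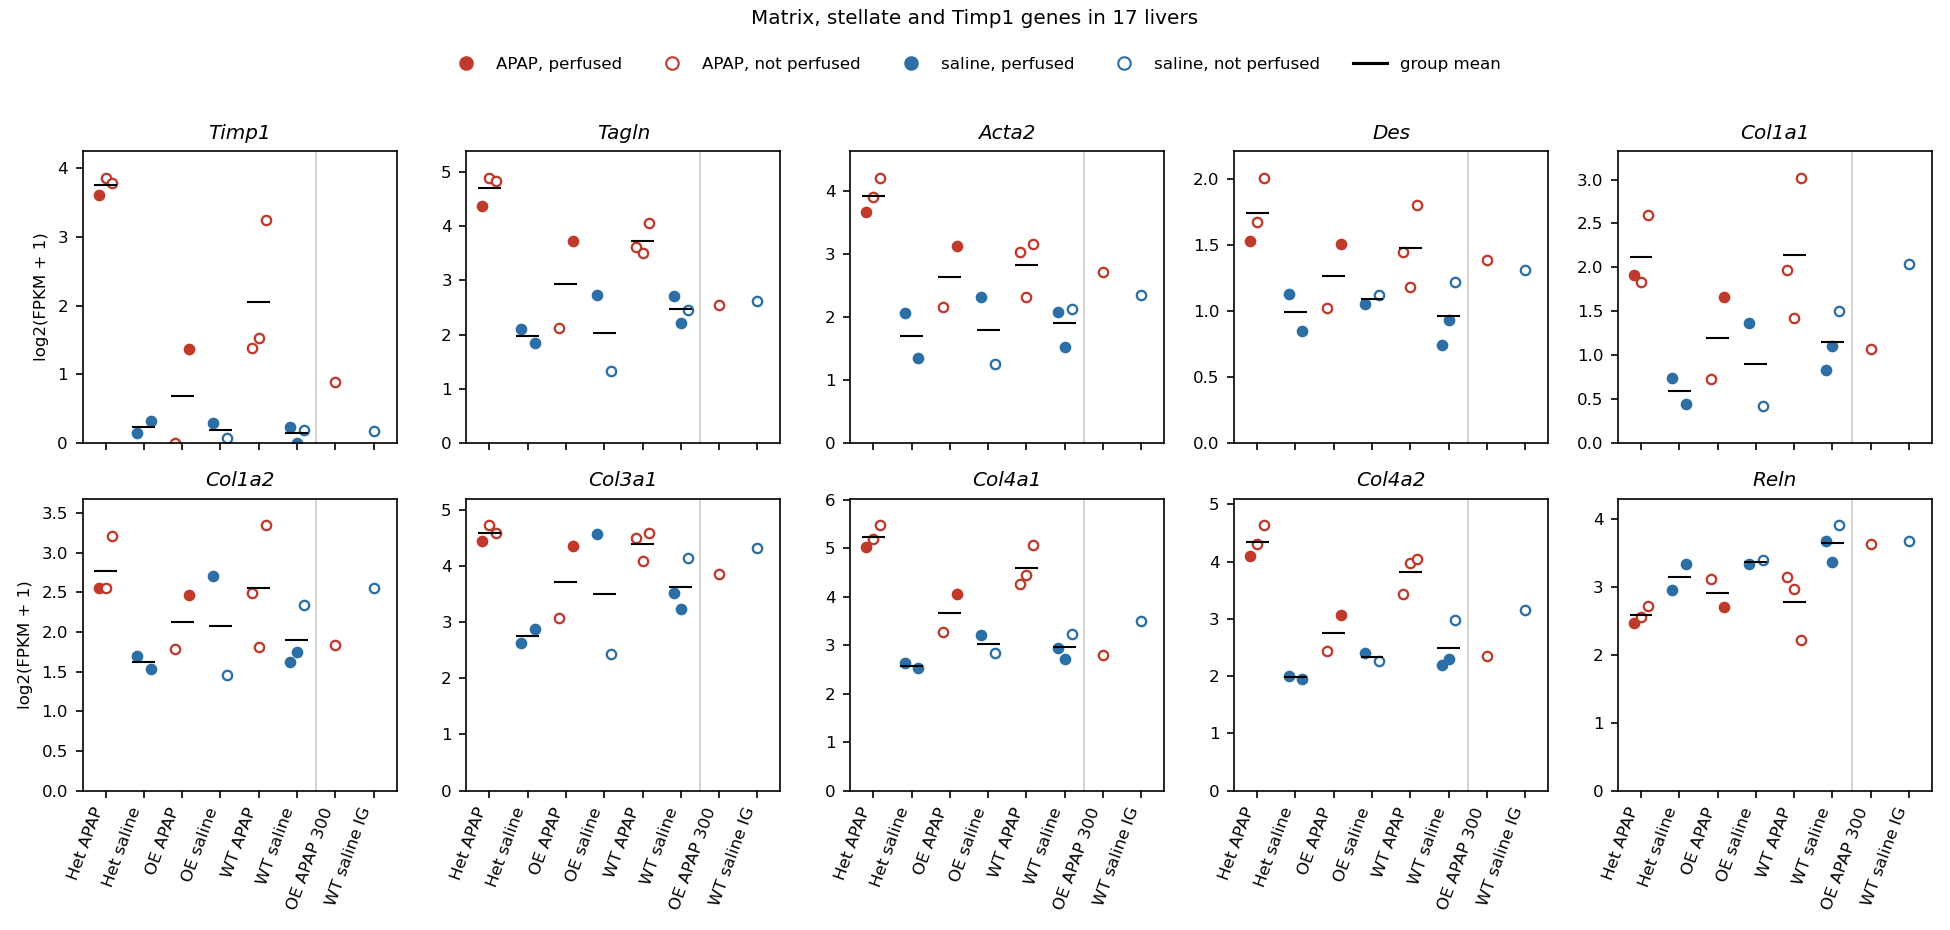
Level of each of the 10 genes in every library, as log2(FPKM + 1); red circles are APAP livers and blue ones saline livers, filled where the liver was perfused, and black lines are group means. The 3 Het APAP livers hold Timp1 between 11.2 and 13.6 FPKM, above all other livers, and Reln is the only one of the 10 genes whose APAP livers lie below their saline livers in all 3 genotypes.

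Timp1 was low without APAP and had the largest averaged rise of the 10 genes. In Het livers it reached 11.2, 13.6 and 12.8 FPKM after APAP, against 0.1002 and 0.245 after saline. In OE livers it was listed at 0 and 1.59 FPKM after APAP, against 0.223 and 0.0510 after saline. Its values were 1.60, 1.87 and 8.45 FPKM in WT livers given APAP, against 0.169, 0 and 0.142 in WT saline livers. Thus 7 of the 8 APAP livers lay above every saline liver and OE APAP 1, listed at 0, lay at or below every saline value. The averaged log2 fold change was 2.09 ± 0.32 (SE; limma adjusted p = 0.00154). It was 2.195 without OE APAP 1 and 3.90 with a pseudocount of 0.1 in place of 1, since the saline values are so low.

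Tagln, which encodes the actin-binding protein transgelin, rose by 1.86 ± 0.27 on the log2 scale (SE; limma adjusted p = 0.00123). In Het livers its values were 19.7, 28.8 and 27.7 FPKM after APAP, against 3.32 and 2.59 after saline. In OE livers they were 3.34 and 12.3 FPKM after APAP, against 5.59 and 1.501 after saline. WT livers had 11.3, 10.4 and 15.6 FPKM after APAP, against 5.58, 3.62 and 4.51 after saline. Tagln thus separated the Het and the WT groups fully and the OE groups not. Acta2, the smooth muscle actin used to mark activated stellate cells, rose by 1.43 ± 0.26 (SE; limma adjusted p = 0.00312). The Het values were 11.7, 14.0 and 17.5 FPKM after APAP, against 3.17 and 1.54 after saline. Those of OE livers were 3.47 and 7.67 FPKM after APAP, against 3.996 and 1.39 after saline. WT livers had 7.12, 3.95 and 7.92 FPKM after APAP, against 3.23, 1.86 and 3.38 after saline. As with Tagln, the ranges overlapped in OE livers alone. This leaves aside the WT saline liver labelled IG, whose 4.07 FPKM of Acta2 lay above the 3.95 FPKM of WT APAP 2.

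Des, the gene of the intermediate filament desmin that marks stellate cells in rodents whether resting or activated, ranged from 1.03 to 3.02 FPKM (median 1.86) in the 8 APAP livers, against 0.667 to 1.33 FPKM (median 1.08) in the 7 saline livers. Its log2 difference was 0.43 ± 0.15 (SE; limma adjusted p = 0.0606), so it missed the threshold that Tagln and Acta2 passed. It passed without the perfusion term (adjusted p = 0.0159), without WT APAP 2 (adjusted p = 0.04) and without OE APAP 1 (adjusted p = 0.0244) in limma.

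Among the fibrillar collagens, which form the scar fibres of injured liver, Col3a1 and Col1a1 rose and Col1a2 did not pass. Col3a1, the type III chain, rose by 1.13 ± 0.34 on the log2 scale (SE; limma adjusted p = 0.0354). In Het livers it had 20.7, 25.3 and 22.9 FPKM after APAP, against 5.16 and 6.38 after saline. In OE livers it had 7.41 and 19.5 FPKM after APAP, against 22.7 and 4.41 after saline. WT livers held 21.5, 16.1 and 23.0 FPKM after APAP, against 10.4, 8.41 and 16.7 after saline, and overlapped slightly. OE saline 1 thus held as much Col3a1 as the livers given APAP, and only 3 APAP livers lay above it. Col1a1, the major chain of type I collagen, rose by 1.01 ± 0.31 (SE; limma adjusted p = 0.0365). It averaged 3.12 ± 2.05 FPKM in the 8 APAP livers and 0.960 ± 0.585 FPKM in the 7 saline livers (SD), its highest value being 7.13 FPKM in WT APAP 3. Col1a2, the other type I chain, averaged 5.16 ± 2.42 FPKM after APAP and 2.84 ± 1.402 FPKM after saline (SD, n = 8 and 7), with a log2 difference of 0.68 ± 0.31 (SE; limma adjusted p = 0.143). In limma, Col1a1 lost its call without any one of OE APAP 2, WT saline 1, WT saline 2, Het saline 1, Het saline 2 and OE saline 2. It also lost it without both OE saline 2 and OE APAP 1. The Col1a1 call was lost too with no filter on low values (limma adjusted p = 0.103), quantile normalisation (0.0524), the lone labels pooled (0.0535) and array weights (0.0558). In limma Col3a1 lost its call with no filter (0.0912) and without any one of WT APAP 1, WT APAP 3, Het APAP 3, OE APAP 2, WT saline 1, Het saline 1, Het saline 2 and OE saline 2 (adjusted p from 0.052 to 0.24), and its log2 fold change was 0.57 without OE saline 2.

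The basement membrane chains had the smallest standard errors among the 7 genes that rose. Col4a1 in Het livers had 31.4, 35.6 and 43.4 FPKM after APAP, against 5.18 and 4.79 after saline. OE livers had 8.67 and 15.5 FPKM after APAP, against 8.31 and 6.19 after saline. WT livers had 18.2, 20.7 and 32.3 FPKM after APAP, against 6.72, 5.60 and 8.43 after saline. Col4a1 was the only member whose 8 APAP livers all lay above the 7 saline livers, where 1.31% of all genes tested were separated in this direction and 2.42% in the other. The WT saline liver labelled IG, not among these 7, held 10.4 FPKM of Col4a1, above OE APAP 1. The log2 fold change of Col4a1 was 1.65 ± 0.18 (SE; limma adjusted p = 2.5e-04). Col4a2 ran from 4.40 to 23.8 FPKM (median 15.1) in the APAP livers, against 2.87 to 6.84 FPKM (median 3.81) in the saline livers. It rose by 1.30 ± 0.18 (SE; limma adjusted p = 6.35e-04), and only OE APAP 1 among the APAP livers lay within the saline range. The liver labelled IG held 7.89 FPKM of Col4a2, above both OE APAP livers. Timp1, Tagln, Acta2, Col4a1 and Col4a2 kept their calls in the averaged response under every alternative in which they were tested.

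Reln went the other way. Het livers had 4.52, 4.88 and 5.55 FPKM of it after APAP, against 6.73 and 9.07 after saline. OE livers had 7.61 and 5.47 FPKM after APAP, against 9.03 and 9.53 after saline. WT livers had 7.86, 6.83 and 3.64 FPKM after APAP, against 11.8, 9.31 and 13.9 after saline. Within each genotype no APAP liver reached its saline livers, although the pooled ranges overlapped between 6.73 and 7.86 FPKM. Reln fell by 0.75 ± 0.16 on the log2 scale (SE; limma adjusted p = 0.00575), and lost its call only without OE APAP 2 (limma adjusted p = 0.053). Without that liver 5 members were called in place of 8, where 7.92% of all genes were.

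**Figure D2:**
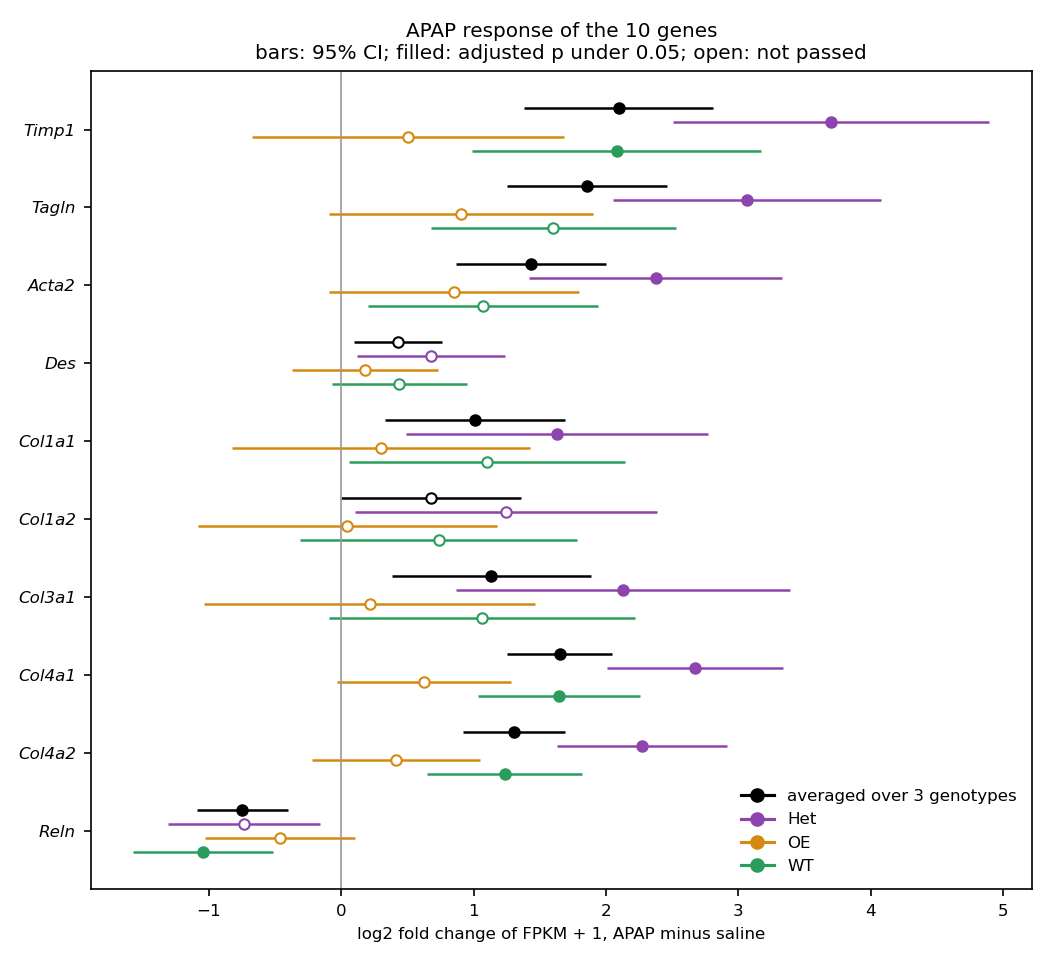
Log2 fold change of FPKM + 1, APAP minus saline, of each gene averaged over the genotypes (black) and within Het, OE and WT, with 95% confidence intervals; filled points passed at an adjusted p under 0.05. The Het estimate is the largest of the 3 genotypes for the 9 genes other than Reln, and the OE intervals all include 0.

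Perfusion moved with the groups, so the differences were also taken within each kind of liver. Among perfused livers, 2 given APAP and 5 given saline, 7 of the 10 genes were fully separated upwards (Timp1, Tagln, Acta2, Col1a1, Col4a1, Col4a2 and Des), where 13.7% of all genes were separated upwards and 14.4% downwards. Among those not perfused, 6 given APAP and 2 given saline, Acta2 and Col4a1 were separated upwards, where 6.59% of all genes were and 8.61% were separated downwards. The WT saline liver labelled IG, also not perfused, was not counted. It held 10.4 FPKM of Col4a1 and 4.07 of Acta2, more than OE APAP 1 (8.67 and 3.47). With it, neither gene would be separated. Reln was separated downwards in both kinds. The log2 differences were close between perfused and non-perfused livers, at 2.30 and 2.167 for Timp1, 1.73 and 1.95 for Tagln, 1.53 and 1.43 for Acta2, 1.72 and 1.58 for Col4a1, 1.41 and 1.19 for Col4a2, and -0.75 and -0.86 for Reln. For the fibrillar chains they were 0.89 and 0.96 for Col1a1, 0.65 and 0.64 for Col1a2 and 1.03 and 0.97 for Col3a1. Des gave 0.58 and 0.35. The kinds of liver held different mixes of genotypes, as no WT APAP liver was perfused and no Het saline liver was left unperfused. These differences therefore mix genotype with perfusion. Within single genotypes, Timp1 differed by 1.86 in non-perfused WT, 3.38 in perfused Het, 1.08 in perfused OE and -0.07 in non-perfused OE livers.

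Het livers gave the largest estimates of the 3 genotypes in 9 of the 10 genes. Timp1 rose by 3.70 ± 0.54, Tagln by 3.06 ± 0.46, Col4a1 by 2.67 ± 0.31, Acta2 by 2.37 ± 0.43, Col4a2 by 2.27 ± 0.30, Col3a1 by 2.13 ± 0.57 and Col1a1 by 1.63 ± 0.52 (log2, SE; limma adjusted p from 4.42e-04 to 0.0446). So 7 members were called higher and 0 lower in limma, where 9.07% of all genes were called higher and 13.1% lower, and all 10 members had an unadjusted p under 0.05, as did 3972 of the 11084 genes. Col1a2 (1.25 ± 0.52, limma adjusted p = 0.11), Des (0.68 ± 0.26, 0.0778) and Reln (-0.74 ± 0.26, 0.065) did not pass. In all 9 genes other than Reln the 3 Het APAP livers lay above both Het saline livers, where groups this small separated 25.4% of all genes upwards and 33.3% downwards. Both Het saline livers were perfused and only Het APAP 1 among the APAP livers was, and against that one liver the log2 differences were 3.38 for Timp1, 2.40 for Tagln, 1.96 for Acta2, 2.44 for Col4a1 and 2.12 for Col4a2. In limma, Col1a1 lost its Het call in 12 of the 15 fits that left out 1 library (adjusted p from 0.0501 to 0.187), the 3 without a loss being those without WT APAP 2, WT APAP 3 and WT saline 3, and Col3a1 lost it without Het saline 1 (0.121) or Het saline 2 (0.0865). Without a filter on low values, Col1a1 (0.111) and Col3a1 (0.0616) both lost it, and Col1a1 also with lane in place of perfusion (0.173), quantile normalisation (0.0634), the lone labels pooled (0.0526) or both OE saline 2 and OE APAP 1 left out (0.115). Reln passed in limma without WT APAP 1 (0.0479) or WT APAP 3 (0.0139), and Des without the perfusion term (0.0297). With array weights all 10 members passed, with limma adjusted p of 0.0310 for Des, 0.0325 for Reln and 0.0355 for Col1a2, where 31.8% of all genes were called.

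Markers of some other cells moved with the Het values, but not those of every cell type. Stellate markers summed to 49.5 to 57.3 FPKM in Het APAP livers, against 78.9 and 82.4 FPKM in Het saline livers. Kupffer markers summed to 151 to 225 FPKM in Het APAP livers, against 251 and 299 FPKM in Het saline livers. For sinusoidal endothelial markers the sums were 90.9 to 106 FPKM, against 103.6 and 99.05 FPKM. Monocyte and macrophage markers summed to 178 to 266 FPKM in Het APAP livers, against 81.8 and 128 FPKM in Het saline livers, and to 62.7 and 136 FPKM in OE APAP livers and 77.5 to 273 FPKM in WT APAP livers. Neutrophil markers summed to 79.5 to 463 FPKM in Het APAP livers, against 3.42 and 2.53 FPKM in Het saline livers. In OE APAP livers they summed to 5.71 and 73.0 FPKM, and in WT APAP livers to 8.64 to 104 FPKM. Both Het saline livers were perfused, and the perfused Het APAP 1 held the 79.5 FPKM. Het APAP 2 and Het APAP 3, not perfused, held 463 and 204.6 FPKM. Erythroid sums were 54.4 FPKM in Het APAP 1 and 1203 and 481.5 FPKM in Het APAP 2 and Het APAP 3. They were 65.4 and 42.0 FPKM in the Het saline livers. Hepatocyte markers summed to 6345 to 8555 FPKM in Het APAP livers, against 13450 and 13010 FPKM in Het saline livers, and to 11810 and 13160 FPKM in OE APAP livers and 7406 to 11830 FPKM in WT APAP livers. Among the WT APAP livers it was WT APAP 3, high in Timp1 and Col1a1, that had the high monocyte and neutrophil sums and the low hepatocyte sum. The part of these cells in the Het response was not tested.

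OE livers gave 0 called members in limma, where 0% of all genes were called, with 0 members and 535 genes at an unadjusted p under 0.05. Estimates ran from 0.05 for Col1a2 to 0.90 for Tagln, with -0.46 for Reln, and each 95% interval included 0. OE APAP 1 was the lowest of the 8 APAP livers in all 9 genes other than Reln, and OE saline 2 the lowest saline liver in Tagln, Acta2, Col1a1, Col1a2 and Col3a1. Matched by perfusion, OE APAP 2 against OE saline 1 differed by 1.08 for Timp1, 1.01 for Tagln, 0.83 for Col4a1 and -0.21 for Col3a1, and OE APAP 1 against OE saline 2, the pair that stood apart on the second principal component, by -0.07 for Timp1, 0.79 for Tagln, 0.43 for Col4a1 and 0.64 for Col3a1 (log2, 1 liver each).

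In WT livers, Timp1 rose by 2.08 ± 0.50, Col4a1 by 1.64 ± 0.28 and Col4a2 by 1.23 ± 0.27, and Reln fell by 1.04 ± 0.24 (log2, SE). These were 3 members called higher and 1 lower, with limma adjusted p of 0.0354, 0.00913, 0.0216 and 0.0279, where 1.98% of all genes were called higher and 3.57% lower. Tagln, with a log2 difference of 1.60, just missed the threshold (limma adjusted p = 0.0504). All 3 WT APAP livers were in lane L005, which held no saline liver, so lane and APAP cannot be told apart in WT. They were not perfused, and of the WT saline livers, the one labelled IG left aside, only 1 was not. Against that saline liver, the log2 differences were 1.86 for Timp1, 1.35 for Col4a1, 0.85 for Col4a2, 1.265 for Tagln and -1.12 for Reln. For Acta2, Col1a1, Col1a2, Col3a1 and Des they were 0.70, 0.63, 0.21, 0.25 and 0.25. The WT APAP livers were uneven: WT APAP 3 held the highest Col1a1 and Col1a2 of all 17 livers, and its Timp1 was 8.45 FPKM beside 1.60 and 1.87 in the other WT APAP livers. Only Col4a1 kept its WT call in every alternative run. In limma, Timp1 lost it without any one of the 3 WT saline, 2 Het saline, 2 OE saline and 2 OE APAP livers (adjusted p from 0.0517 to 0.101), Col4a2 without WT APAP 2, WT APAP 3, WT saline 1 or WT saline 2 (0.0559 to 0.0731), and Reln without WT APAP 3, OE APAP 1, OE APAP 2, WT saline 1 or WT saline 3 (0.0522 to 0.147). Without a filter on low values Timp1 (0.105), Col4a2 (0.0860) and Reln (0.0969) all lost it, Timp1 also with quantile normalisation (0.0522), and Timp1 (0.0909) and Reln (0.0654) without both OE saline 2 and OE APAP 1. Tagln gained a call in limma without Het APAP 1 (0.0112), Het APAP 2 (0.044) or both OE saline 2 and OE APAP 1 (0.0319), with a mean of at least 5 FPKM (0.0420), with the lone labels pooled (0.0227) and with array weights (0.0451).

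**Figure D3:**
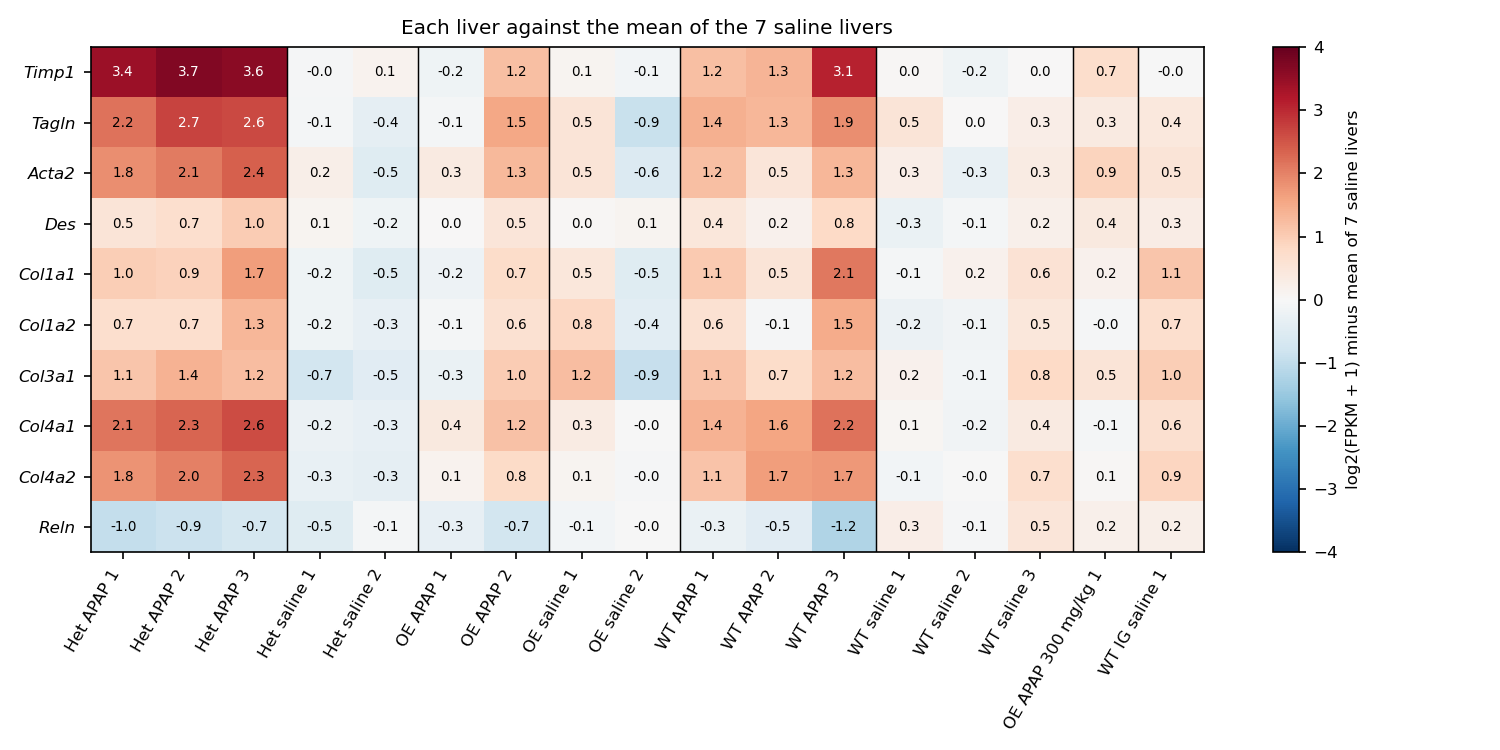
Difference of each liver from the mean of the 7 saline livers, in log2(FPKM + 1), for each gene; rows are genes, columns are livers grouped by genotype with APAP left of saline, and the lone 300 mg/kg and IG livers stand at the right. The Het APAP livers are red in 9 of 10 rows, OE APAP 1 is close to white, and the Reln row is blue in all 8 livers given 200 mg/kg APAP.

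Taking the median over the 9 genes other than Reln as one value per liver, the Het APAP livers stood 1.80, 2.01 and 2.33 log2 units above the saline mean. OE APAP 2 stood 1.01 above and OE APAP 1 stood at -0.08. The WT APAP livers stood 1.15, 0.75 and 1.74 above it. The 7 saline livers ran from -0.41 in OE saline 2 to 0.45 in OE saline 1. Reln stood below its saline mean in all 8 of these APAP livers, with differences from -1.21 to -0.27, and WT APAP 3 was the lowest.

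Whether the genotypes differed was tested directly. The APAP response of Het minus that of WT was positive in all 10 members, 1.62 ± 0.66 for Timp1, 1.46 ± 0.56 for Tagln, 1.30 ± 0.53 for Acta2, 1.03 ± 0.37 for Col4a1 and 1.03 ± 0.36 for Col4a2 (log2, SE). These 5 had an unadjusted p under 0.05, as did 918 of all genes, but 0 members passed in limma (lowest adjusted p = 0.601), where 0.00902% of all genes did. With array weights 4 members passed, and the share of all genes that did was 3.91%. The OE response minus the WT response was negative in 9 members, with -1.57 ± 0.73 for Timp1 and -1.02 ± 0.41 for Col4a1 (log2, SE). In limma 0 members passed for that difference (lowest adjusted p = 0.801), where 0% of all genes did, and 1 member and 664 of all genes had an unadjusted p under 0.05. With 2 or 3 livers per group these intervals stay wide: that of the Het minus WT difference of Timp1 ran from 0.17 to 3.07.

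Under saline, 0 members differed from WT in Het livers and 0 in OE livers by limma, none with an unadjusted p under 0.05, where 0.0451% and 0.0361% of all genes passed. Under APAP, Het minus WT was 1.62 ± 0.45 for Timp1 and 1.02 ± 0.36 for Acta2 (log2, SE), and 0 members passed in limma (lowest adjusted p = 0.0948, 4 members and 2119 of all genes with an unadjusted p under 0.05), where 0.0632% of all genes did. The members called were 5 with array weights, 2 with lane in place of perfusion and 1 without WT APAP 3, but the share of all genes called was then also larger, at 13.5%, 6.82% and 7.74%. OE minus WT was -1.49 ± 0.52 for Timp1 and -0.999 ± 0.28 for Col4a2, and again 0 members passed in limma (lowest adjusted p = 0.141, 4 members and 1910 of all genes with an unadjusted p under 0.05), where 0.00902% of all genes did; 1 member passed without OE APAP 2, and 0.893% of all genes.

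The contrast between OE and Het livers under APAP was the one in which members passed. OE minus Het was -3.11 ± 0.49 for Timp1, -1.86 ± 0.42 for Tagln, -1.57 ± 0.28 for Col4a1, -1.58 ± 0.27 for Col4a2 and -1.32 ± 0.39 for Acta2 (log2, SE; limma adjusted p from 0.00559 to 0.0469). Thus 5 of 10 members were called lower and 0 higher in limma, with 5 members and 3315 of all genes at an unadjusted p under 0.05, where 4.95% of all genes were called lower and 8.75% higher. Without OE APAP 1, 0 members passed in limma, and nearly all calls of the whole table went with them (0.0451% of all genes left). The log2 differences were then -2.35 for Timp1, -1.10 for Tagln, -1.07 for Col4a1, -1.05 for Col4a2 and -0.83 for Acta2, with limma adjusted p from 0.194 to 0.55. With lane in place of perfusion 0 members and 0.0361% of all genes passed, and without both OE APAP 1 and OE saline 2 they were 0 members and 0.00902%. Without Het APAP 3, 3 members and 6.01% of all genes passed.

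The 10 genes did not all vary together over the livers. Likeness was measured as the root mean square distance between standardised log2(FPKM + 1) over the 17 libraries, where a small value means alike. The closest pairs were Col4a1 with Col4a2 (0.207), Tagln with Acta2 (0.317), Tagln with Col4a1 (0.318) and Col1a1 with Col1a2 (0.328). Timp1 was closer to Col4a1 (0.356) and Tagln (0.367) than to Col1a1 (0.696) or Col3a1 (0.7996). Reln was farthest from Timp1 (1.84) and nearest, though still far, to Col3a1 (1.61). Among the 10116 other genes compared, those most like Timp1 were Tnc (0.174), Lgals3 (0.181), Pkm (0.189), Msn (0.203) and Elmo1 (0.207), where the median over genes was 1.41. Those most like Reln were Vdac1 (0.397), Dmac1 (0.414), Isoc1 (0.427), Cox5a (0.446) and Tbc1d9b (0.448), with a median of 1.36, so no gene lay as close to Reln as these 5 did to Timp1. All distances share the same 17 libraries and the same APAP difference.

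**Figure D4:**
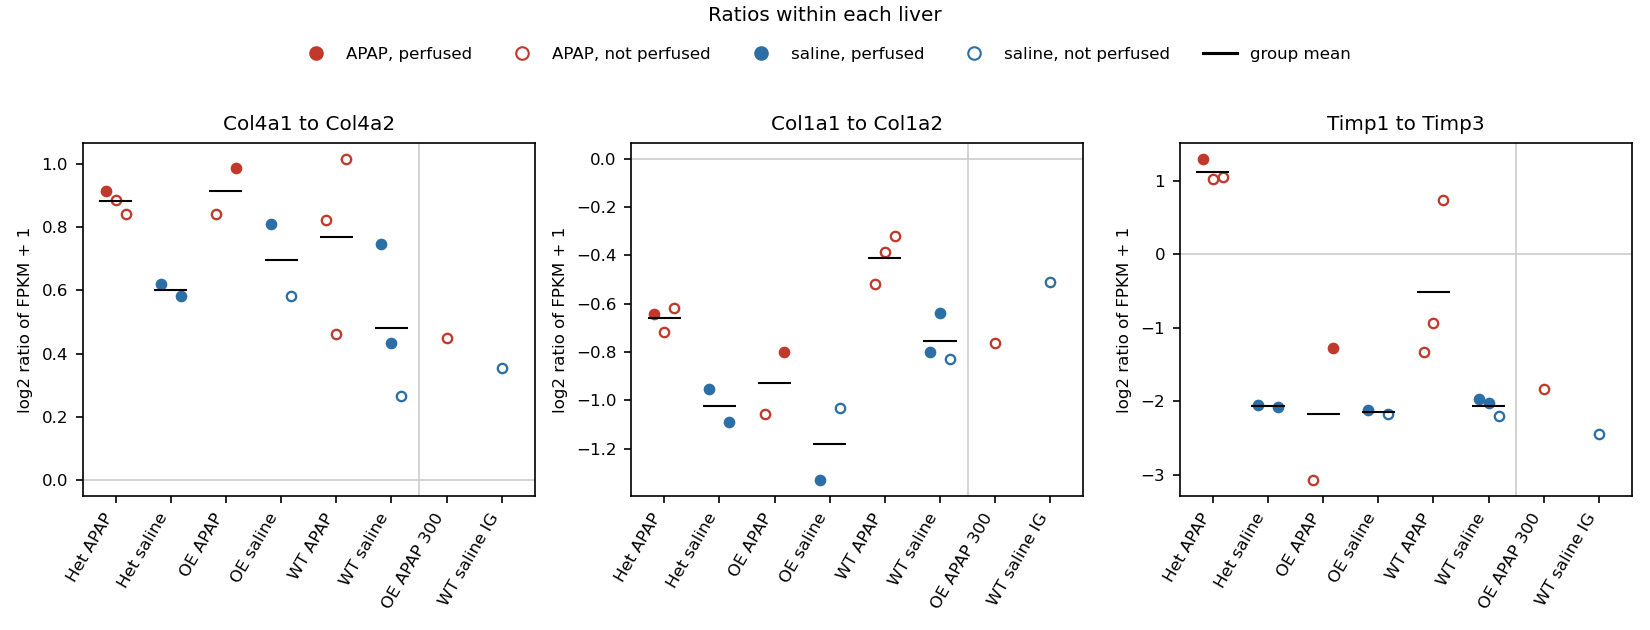
Log2 ratio of FPKM + 1 within each liver for the type IV chains, the type I chains and the inhibitors Timp1 and Timp3; red circles are APAP livers, blue ones saline livers, filled where perfused, and black lines are group means. Each ratio is higher in the APAP livers on average, and the Timp1 to Timp3 ratio is above 0 in WT APAP 3 and in the 3 Het APAP livers.

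Ratios within a liver compare 2 chains of one collagen type or 2 inhibitors of one family. Each type IV collagen molecule commonly has more alpha-1 than alpha-2 chains, and the Col4a1 to Col4a2 log2 ratio was 0.85 ± 0.17 in the 8 APAP livers and 0.58 ± 0.18 in the 7 saline livers (SD), a difference of 0.27 (exact permutation p = 0.0143, two-sided). The Col1a1 to Col1a2 log2 ratio was -0.63 ± 0.23 after APAP and -0.95 ± 0.23 after saline (SD, n = 8 and 7), a difference of 0.32 (exact permutation p = 0.0196). In every liver Col1a2 was listed above Col1a1, per length, although the type I molecule commonly has more alpha-1 chains. Against Timp3, a related inhibitor held in the matrix, Timp1 had a log2 ratio of -0.31 ± 1.57 after APAP and -2.09 ± 0.08 after saline (SD, n = 8 and 7), a difference of 1.78 (exact permutation p = 0.0155). Timp1 was at most 0.245 FPKM after saline, so with a pseudocount of 1 the saline ratio mostly follows Timp3. This difference therefore largely repeats the rise of Timp1. Adjusted by Benjamini-Hochberg over these 3 ratios, the p was 0.0196 for each. The differences kept their direction within perfused livers (0.31, 0.24 and 2.06) and within those not perfused (0.39, 0.33 and 1.77), with exact permutation p from 0.0952 to 0.476, where 2 against 5 livers can reach no less than 0.0952 and 6 against 2 no less than 0.0714. The type IV ratio missed the threshold with a pseudocount of 0.1 (0.21, exact permutation p = 0.0653), while with it the type I ratio differed by 0.72 (exact permutation p = 0.0106) and the Timp1 to Timp3 ratio by 3.40 (exact permutation p = 0.00684).

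The other genes of the matrix moved unevenly in the averaged response. Of 11 other collagen chains tested, 3 were called higher (Col6a3 by 0.83, Col5a2 by 0.80 and Col5a1 by 0.55 on the log2 scale), 0 lower and 8 did not pass, with a median of 0.23. Among 12 genes of collagen folding, crosslinking and cleavage, 6 were called higher and 0 lower, with P3h1, a prolyl hydroxylase, at 1.16, Serpinh1, the collagen chaperone, at 1.04, and the crosslinking enzymes Loxl4 and Loxl2 at 0.81 and 0.65. Of 21 genes of the basement membrane and adhesive matrix, 8 were called higher and 4 lower. Those with the smallest p, all higher, were Thbs1 (2.72) and Tnc (1.71), which encode the matricellular proteins thrombospondin 1 and tenascin C, the laminin chain Lamc1 (0.77) and the microfibril gene Fbn1 (0.83). Ecm1 (-0.49) was among the 4 lower. Tnc had 0.217 to 10.9 FPKM in the APAP livers, against 0.185 to 0.466 FPKM in the saline livers. All these counts are from limma at an adjusted p under 0.05, where 9.81% of all genes were called higher and 13.3% lower. The lists were chosen with earlier results of these data known.

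Of 13 tested proteases, inhibitors and plasminogen activators of the matrix, 7 were called higher and 2 lower in limma. Over all genes tested, 9.81% were called higher and 13.3% lower. Mmp12, the macrophage elastase, rose by 2.98, Plaur, the urokinase receptor, by 1.55, Adamts9 by 0.98 and Mmp14 by 0.61, while Mmp15 fell by 0.73 and Mmp19 by 0.52. The relatives of Timp1 did not pass: Timp2 had a log2 difference of -0.29 (limma adjusted p = 0.373) and Timp3 of 0.28 (limma adjusted p = 0.08). Timp3 had 3.96 to 7.40 FPKM after APAP, against 3.07 to 4.32 FPKM after saline. Timp4 and Mmp2, Mmp3, Mmp8, Mmp9, Mmp10, Mmp11, Mmp13, Mmp23 and Mmp24 lay below a mean of 1 FPKM and were not tested.

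Contractile and signalling genes changed in part, in a response where 9.81% of all genes tested were called higher and 13.3% lower. Of 19 contractile and cytoskeletal genes besides Tagln, Acta2 and Des, 9 were called higher and 1 lower in limma. Those with the smallest p were the tropomyosins Tpm4 (1.27) and Tpm1 (1.19), the filamin Flna (1.18) and the nonmuscle myosin Myh9 (1.04). Of 21 genes of TGF-beta and PDGF signalling, 7 were called higher and 1 lower, with Tgif1 (0.80), Tgfb1 (0.78) and Skil (0.77) higher and Nrep at -2.39, from 0.254 to 8.11 FPKM after APAP, against 6.13 to 22.7 FPKM after saline. Of 16 genes of the interleukin-6 and interleukin-1 families, AP-1 and the surface partners of Timp1, 8 were called higher and 1 lower. Il1r1 (1.67) and Osmr (1.16), receptors for interleukin-1 and oncostatin M, Stat3 (0.94) and the shared receptor chain Il6st (0.65) were among them, and Il6, Osm, Lif, Il11 and Tnf were below the filter. In the reelin pathway 0 of 3 tested genes passed in limma (Crkl 0.09, Crk 0.06 and Fyn -0.06), and the receptors Vldlr and Lrp8 and the adaptor Dab1 were below the filter.

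**Figure D5:**
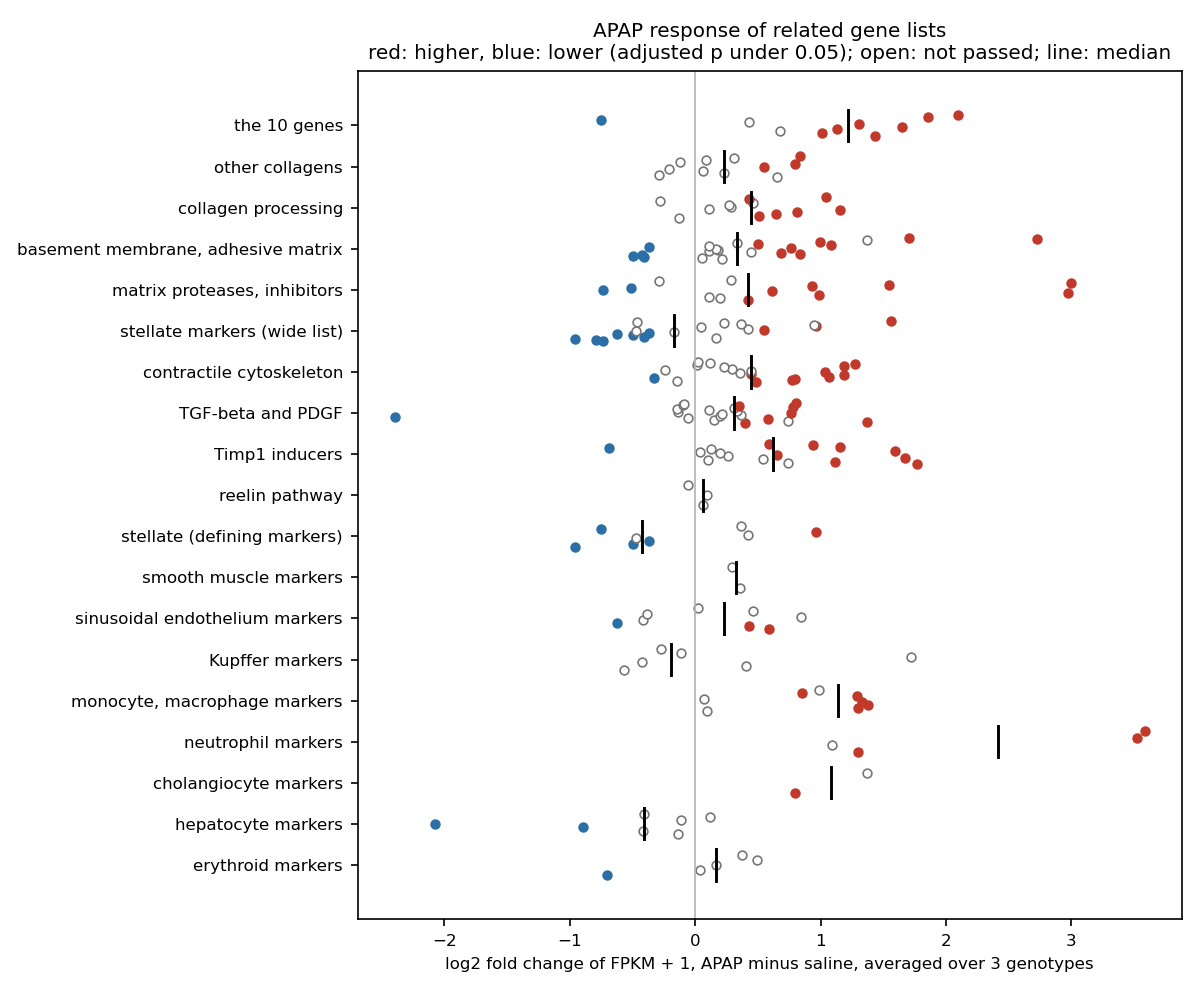
Averaged log2 fold change of FPKM + 1, APAP minus saline, of every tested gene of each list, red where called higher, blue where called lower, open where not passed, with the list median as a black line. The 10 genes have a median of 1.22, the defining stellate markers -0.42 and the monocyte and macrophage markers 1.139.

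Markers of the cell types in liver were read beside these results, where 9.81% of all genes tested were called higher and 13.3% lower. Of 8 defining stellate markers (Reln among them), 1 was called higher in limma, Pdgfrb, the PDGF receptor (0.97), and 4 lower, Colec11 (-0.96), Reln, Ecm1 (-0.49) and Hand2 (-0.37). Their summed level ran from 48.1 to 81.0 FPKM in the 8 APAP livers, against 67.5 to 113 FPKM in the 7 saline livers. The median sum was 55.3 FPKM in the APAP livers and 78.9 FPKM in the saline livers. Ecm1 alone averaged 24.1 and 36.0 FPKM in them, so 1 gene made up a large part of these sums. In a wider stellate list of 19 tested genes, 3 were called higher (Vim by 1.56 and Nes by 0.55 among them) and 7 lower (Angptl6 at -0.74 and Ednrb at -0.62 among them), with a median of -0.17. Smooth muscle markers summed to 2.02 to 4.60 FPKM, against 1.22 to 3.92 FPKM, with 0 of 2 tested genes called in limma (Myh11 0.36, Smtn 0.29) and Cnn1, Actg2, Lmod1 and Synpo2 under 1 FPKM in every one of these livers. Portal fibroblast markers summed to 2.19 to 3.997 FPKM, against 1.82 to 3.37 FPKM, and mesothelial markers to 1.003 to 1.71 FPKM, against 0.718 to 1.96 FPKM, with 6 of 8 and 4 of 5 of them under 1 FPKM throughout.

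Several markers of infiltrating cells rose beside the members. The counts below stand beside 9.81% of all genes called higher and 13.3% called lower. Monocyte and macrophage markers summed to 62.7 to 273 FPKM after APAP, against 48.8 to 128 FPKM after saline, and 5 of 8 were called higher in limma (Cd68 1.33, Ccr2 1.30, Itgam 1.29 and Ly6c2 0.85 among them). Neutrophil markers summed to 5.71 to 463 FPKM, against 1.88 to 9.46 FPKM, and 3 of 4 tested were called higher (S100a9 3.58, S100a8 3.52 and Csf3r 1.30). Sinusoidal endothelial markers had overlapping sums, 63.4 to 106 FPKM, against 65.7 to 104 FPKM, with 2 of 8 called higher (Cdh5 0.59, Clec1b 0.43) and 1 lower (Clec4g -0.63). Of 6 Kupffer markers 0 were called in limma, their sums being 95.9 to 251 FPKM after APAP and 117 to 299 FPKM after saline. Of 2 cholangiocyte markers tested, 1 was called higher (Sox9, 0.80). Hepatocyte markers had 2 of 7 called lower (Cyp3a11 -2.07, Cps1 -0.89), with sums of 6345 to 13160 FPKM after APAP and 11690 to 16980 FPKM after saline. Erythroid markers had 1 of 5 lower (Alas2 -0.71), with sums of 54.4 to 1203 FPKM and 42.0 to 253 FPKM. The part of these cells in the results on the 10 genes was not tested.

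The lone livers have no replicate. The OE liver given 300 mg/kg held 0.841 FPKM of Timp1, 4.83 of Tagln, 5.55 of Acta2, 13.5 of Col3a1 and 5.98 of Col4a1, and its median over the 9 genes other than Reln stood 0.35 log2 units above the saline mean, within the range of the saline livers. Its Reln, at 11.3 FPKM, lay above all 8 livers given 200 mg/kg. The WT liver given saline labelled IG held 3.10 FPKM of Col1a1, 10.4 of Col4a1, 7.89 of Col4a2, 4.07 of Acta2 and 1.47 of Des, above each of the 7 saline livers, whose highest values were 1.84, 8.43, 6.84, 3.996 and 1.33 FPKM, and its median stood 0.63 above the saline mean.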

How the data were processed

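A stranded total RNA kit was used for the 17 livers, per the labels' protocols. The submitters' processing notes name Cufflinks 2.2.1, Cuffdiff, TopHat2 2.0.9 and bcl2fastq 2.17.1.14, with GRCm38 p5 as the build. The authors deposited a single value for each gene in each library, taken to be FPKM because of these tools and the size of the values, as the header gives no unit. Without counts the depth, and so the counting error, is unknown. A gene listed at 0 in a whole genotype and drug block but with a block mean of at least 10 FPKM elsewhere was taken as a failed estimate, which removed 108 genes. A mean FPKM of 1 or more was required, leaving 11084 genes. This mean includes the APAP livers, so a gene low in saline livers could pass through them. limma 3.58.1 with statmod 1.5.0 (R 4.3.3) fitted log2(FPKM + 1) with a mean per label group and a perfusion term, trended and robust, at a false discovery rate of 0.05 and with 8 residual degrees of freedom, checked on simulated data. In the averaged response the 3 genotypes' APAP minus saline differences have equal weight. Ratios were compared with exact permutation tests (scipy 1.17.1). Named besides the 10 genes are up to 4 genes of each list with the smallest p, Timp and Mmp genes, and the 5 profiles nearest to Timp1 and to Reln; Hand2 completes a count of 4, and the genes below the filter are named as such. The members, lists and ratios were chosen with earlier results of these data known, and the markers of 11 cell types likewise. Older symbols were matched through the reference names. Motifs were searched after the sequences were seen. Alternatives were the pseudocount, the filter, the perfusion or lane term, quantile normalisation, pooled or dropped lone labels, array weights, failed estimates kept, and each library left out.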

Additional observations from a re-analysis of the deposited data

Results flagged for a closer look

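Among the 8 livers given 200 mg/kg APAP, OE APAP 1 stood low in Col3a1, at 3.07 on the log2(FPKM + 1) scale, where the next liver was at 4.09, so the gap took 0.62 of the range of the group (critical value 0.526). For the Col4a1 to Col4a2 log2 ratio, WT APAP 2 stood low at 0.46, next to 0.82 in the nearest liver (0.649 of the range). Of 26 such checks 2 stood out, and chance gives about 1 in 20; the cause was not tested.

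The single OE liver given 300 mg/kg, which no comparison uses, held more of 3 genes than any of the 7 saline livers. These were Timp1 at 0.841 FPKM, against 0.245 FPKM in the highest saline liver, Acta2 at 5.55 FPKM, against 3.996 FPKM, and Des at 1.61 FPKM, against 1.33 FPKM. The lone WT saline liver labelled IG also lay above these 7 saline livers in Acta2 (4.07 FPKM) and Des (1.47 FPKM), but not in Timp1 (0.126 FPKM).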

How the results depend on the processing

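The averaged response had 5 to 9 called members when 1 library was left out (8 with all), the WT response 1 to 5 (4 with all) and the Het response 5 to 8 (7 with all). The count stayed at 0 for the OE response, ran from 0 to 1 for Het minus WT and for OE minus WT under APAP (0 with all), and from 0 to 5 for OE minus Het under APAP (5 with all). With no filter on low values, the WT response had 1 called member and OE minus Het under APAP had 3. With lane in place of perfusion, OE minus Het had 0 and Het minus WT under APAP had 2. Lane gave no value for the averaged and WT responses, the saline differences and the response differences, which it leaves without an estimate. The WT saline livers shared no lane with APAP, Het or OE livers. Array weights gave 5 called members for Het minus WT under APAP, 4 for the difference of the Het and WT responses and 1 for Het minus WT under saline, against 0 in each as reported, while calls over all genes came to 1499, 433 and 1708, against 7, 1 and 5. With array weights the Het response had 10. Without OE saline 2 and OE APAP 1, chosen after seeing the data, OE minus Het had 0. For the counts above the cause was not tested.

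The Col4a1 to Col4a2 ratio differed by 0.21 with a pseudocount of 0.1 (exact permutation p = 0.0653), by 0.31 in perfused and by 0.39 in non-perfused livers. The Col1a1 to Col1a2 ratio differed by 0.25 with the lone labels pooled (exact permutation p = 0.0502), by 0.24 in perfused and by 0.33 in non-perfused livers. The Timp1 to Timp3 ratio differed by 2.06 and 1.77. Fewer livers entered the tests by perfusion.

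Gene by gene, estimates were recomputed for the averaged, WT, Het and OE responses and for OE minus Het under APAP. In OE minus Het, Col1a2 and Col3a1, neither called, turned to 0.054 and 0.13 with lane in place of perfusion, and to 0.020 and 0.10 with both OE saline 2 and OE APAP 1 left out. The other reversals were in the OE response, where no member was called. With the lone labels pooled, Col1a2 was at -0.046, and without both OE saline 2 and OE APAP 1 it was at -0.23 and Col3a1 at -0.21. With 1 library left out, Timp1 ran from -0.20 (without OE APAP 2) to 1.21, Col1a1 from -0.20 (without OE saline 2; -0.20 also without OE APAP 2) to 0.80, Col1a2 from -0.66 (without OE saline 2) to 0.75, Col3a1 from -0.85 (without OE saline 2) to 1.28, Col4a2 from -0.082 (without OE APAP 2) to 0.90 and Des from -0.20 (without OE APAP 2) to 0.55.

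Over all genes, calls ran from 878 to 3082 in the averaged response, from 145 to 1242 in the WT response, from 843 to 3529 in the Het response and from 1 to 2255 for OE minus Het under APAP. With a mean of at least 5 FPKM, Timp1, Col1a1, Col1a2 and Des were not tested. No paired analysis was possible because replicate numbers were given in the order of deposition and tie no animals across groups.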
